A study of Mus musculus with 8 samples.

Results

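The 35 genes described here encode proteins that build ribosomes, together with 3 enzymes of polyamine and pyrimidine synthesis (Odc1, Srm and Cad), and they were listed as genes under the control of the Myc family. They were found by gene symbol in the array annotation, with 1 probe set kept for each gene, that with the highest mean log2 intensity over the 8 arrays. All 35 were measured, of 18193 named genes on the array (45037 probe sets), and no filter on low intensities was applied. They were examined because Mycn, which encodes the transcription factor N-Myc, had a lower intensity after Cre, and the question was whether genes of ribosome building followed.

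RNA came from 2 murine T cell leukemia lines of the FVB/NJ strain that both lack E2a, which encodes the lymphoid transcription factors E12 and E47. There were 4 groups of 2 arrays. The first was the Lef1F/F line with MigR1-Cre, a retrovirus that produces the recombinase Cre along with GFP. The others were the Lef1F/F line with MigR1, which produces GFP alone, the E2a-/- line with MigR1-Cre and the E2a-/- line with MigR1. In the Lef1F/F line both alleles of Lef1, the gene of a TCF/LEF transcription factor, have a DNA binding domain flanked by loxP sites, whereas the E2a-/- line has unmodified Lef1 and served as the control for Cre itself. GFP+ cells were sorted 72 h after infection. With 1 line for each genotype, an effect of the genotype cannot be told apart from one of the line. The labels do not state whether the 2 arrays of a group represent separate cultures. The p-values therefore reflect the spread of these arrays alone, which may be of technical origin.

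Ribosomes are assembled in the nucleolus. RNA polymerase I transcribes a long precursor RNA, small nucleolar ribonucleoproteins (snoRNPs) guide its chemical modification, and many processing factors cut and fold it into the RNAs of the small and the large subunit. Myc and N-Myc pair with Max and bind a short DNA motif, the E-box, and genes for nucleolar proteins, RNA polymerase I subunits and processing factors are among their best known targets. In many T cell leukemias, Myc activity downstream of Notch1 is known to sustain growth. For E2a-/- leukemias, the authors instead describe Lef1 as the gene that Notch1 signaling regulates.

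The E-box CACGTG is a palindrome, so the same letters are read on both strands. RefSeq promoter windows of the GRCm38.p6 assembly, from 250 bases before to 50 bases after each gene's start, were matched for 29 of the 35 genes. The motif was present in 8 of these 29 windows (27.6%) and in 2187 of 27025 windows of all genes (8.09%). The stretches that hold it are printed here, because they are the letters through which a Myc family protein could act on these genes. Each is given 5′ to 3′ on the strand of the gene, with the motif in capitals.
Nop2: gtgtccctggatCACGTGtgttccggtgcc
Pes1: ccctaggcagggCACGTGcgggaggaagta
Wdr43: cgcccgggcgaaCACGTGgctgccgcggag
Nle1: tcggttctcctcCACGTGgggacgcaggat
Tsr1: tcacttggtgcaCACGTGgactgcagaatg
Utp20: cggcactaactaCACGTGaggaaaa
Pno1: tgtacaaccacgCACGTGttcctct
Mybbp1a: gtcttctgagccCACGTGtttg
The coordinates in brackets below are those of the whole printed stretch. The motif of Nop2 (chr6:125131811-125131840, plus strand) lay 60 bases upstream of the start. In the other 7 it lay downstream, by 3 bases in Pes1 (chr11:3963965-3963994, plus strand), 18 in Wdr43 (chr17:71616220-71616249, plus strand), 24 in Nle1 (chr11:82908355-82908384, minus strand) and 25 in Tsr1 (chr11:74898092-74898121, plus strand). In Utp20 (chr10:88826765-88826789, minus strand) and Pno1 (chr11:17211540-17211564, minus strand) it began 38 bases downstream, and in Mybbp1a (chr11:72441355-72441376, plus strand) 41 bases downstream. A match in these letters is a description of the sequence and not a binding site. The windows of Npm1, Fbl, Srm, Bop1, Rrs1 and Rrp12 were not analysed here. The 35 genes lie on 16 chromosomes, with 7 of them on chromosome 11.

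The arrays gave linear intensities that had been normalised by RMA, with medians between 88.9 and 91 in the 8 arrays. The mean intensities of the 35 probe sets lay between 200.6 (Nle1) and 15150 (Npm1), all above those medians. RMA gives all arrays the same distribution of intensities and so hides any shift in the RNA content of the cells, and fewer cells of a type and less RNA per cell cannot be told apart. The brighter Lef1 probe set had intensities of 1903 and 1678 in the Lef1F/F MigR1-Cre arrays and 6918 and 6126 in the Lef1F/F MigR1 arrays. These values are in keeping with the titles of the Lef1F/F samples. It is not known here whether the probes of this set fall inside the floxed part. In the E2a-/- line it read 3008 and 3416 in the MigR1-Cre arrays and 3288 and 3337 in the MigR1 arrays. Lef1 is unmodified in that line, so its intensity cannot show which vector those arrays received. Another field of the labels gives a different vector for 2 of the groups, E2a-/- MigR1-Cre and Lef1F/F MigR1, and the titles were followed. Cd3d, a chain of the T cell receptor complex, read between 7739 and 11670, while all 5 B lineage, 8 myeloid and 3 erythroid markers measured stayed under 200 in every array.

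With its brightest probe set, Mycn was lower after MigR1-Cre in both lines, without overlap of the arrays, but did not pass the test across all probe sets. The intensity was 7353 and 5481 in the Lef1F/F MigR1-Cre arrays, against 11050 and 9317 in the Lef1F/F MigR1 arrays. In the E2a-/- line it was 6470 and 6640 with MigR1-Cre, against 12650 and 11710 with MigR1. Every MigR1-Cre array thus read below every MigR1 array of either line. For the Lef1F/F line the log2 difference was -0.68 ± 0.14 (SE), with a 95% interval of -0.99 to -0.36 (limma adjusted p = 0.238). For the E2a-/- line it was -0.89 ± 0.14, with an interval of -1.21 to -0.58 (adjusted p = 1). Averaged over the lines it was -0.78 ± 0.10 (adjusted p = 0.0781, interval -1.01 to -0.56). With 1 array left out, the averaged difference ran from -0.89 to -0.68. The other 2 Mycn probe sets were dim, between 49.6 and 54.5 in one and between 81.21 and 90.63 in the other, and did not share the difference. Their log2 differences were 0.059 and 0.080 in the Lef1F/F line and 0.027 and -0.022 in the E2a-/- line, so the lower Mycn signal rests on 1 probe set. The adjusted p was computed over all 45037 probe sets, and with 2 arrays a group it can stay high for a large difference. The value in the E2a-/- line also depended on fitting both lines together, with a shared spread. A fit of the E2a-/- arrays alone gave a limma adjusted p of 0.0102. Replicate arrays differed with an SD over all genes of 0.151 (MigR1-Cre) and 0.152 (MigR1) in the Lef1F/F line. In the E2a-/- line the SD was 0.115 and 0.098. The part of this spread in the adjusted p was not tested.

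The other family members did not pass the test either, and their arrays overlapped between vectors or were dim. Myc had intensities of 3081 and 2663 in the Lef1F/F MigR1-Cre arrays, 2924 and 2544 in the Lef1F/F MigR1 arrays, 2907 and 2815 in the E2a-/- MigR1-Cre arrays and 2923 and 2550 in the E2a-/- MigR1 arrays. The arrays overlapped in both lines, and the averaged log2 difference for Cre was 0.069 with a 95% interval of -0.10 to 0.24. Max, the common partner, read 460 and 465.4 in the Lef1F/F MigR1-Cre arrays and 493.8 and 435.5 in the Lef1F/F MigR1 arrays, and 542.2 and 501.7 in the E2a-/- MigR1-Cre arrays and 520.4 and 604.7 in the E2a-/- MigR1 arrays. Mycl was dim, between 95.35 and 108.9 in all arrays with its brightest probe set.

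**Figure D1:**
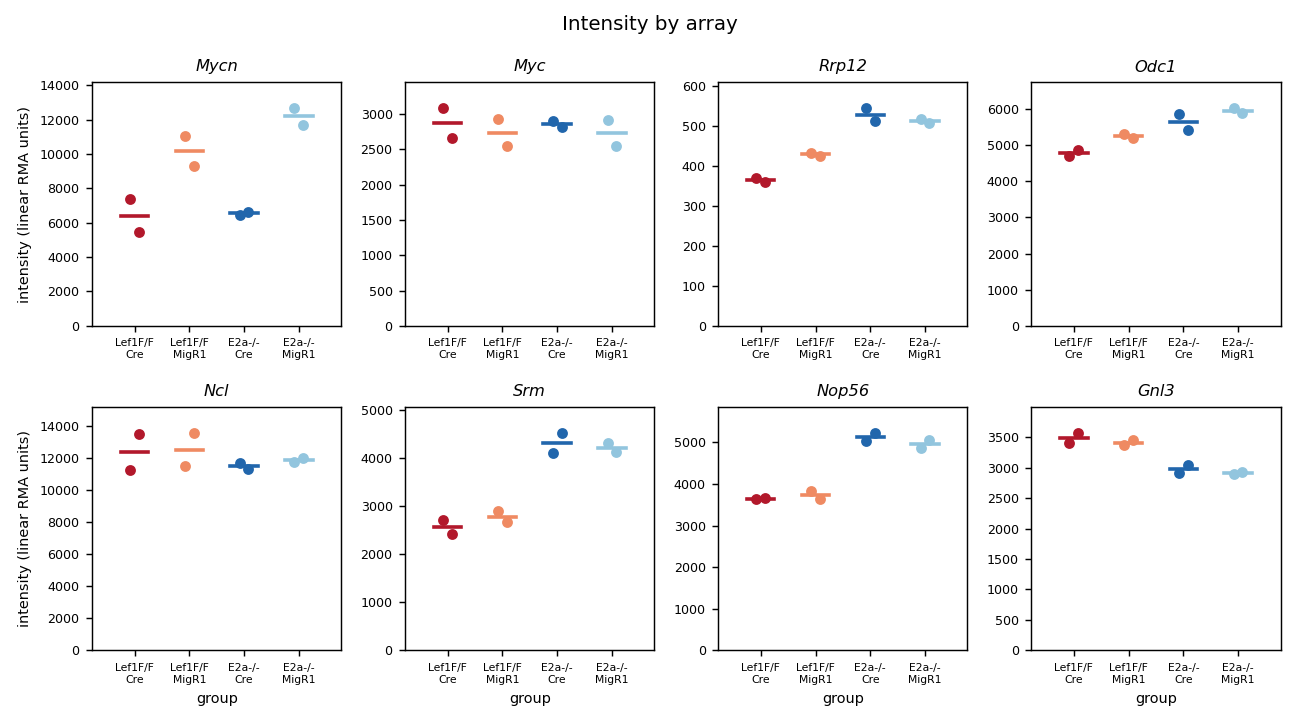
Intensity (linear RMA units, y axis from 0) of Mycn, Myc and 6 of the 35 genes in each of the 8 arrays, by group on the x axis; points are arrays and bars are group means of 2 arrays. Mycn separates MigR1-Cre from MigR1 arrays in both lines, whereas Srm and Nop56 separate the Lef1F/F line from the E2a-/- line, with little difference by vector.

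No gene of the list passed the test for Cre in the Lef1F/F line, where 0 of 35 were called at an adjusted p under 0.05, beside 0.286% of all named genes. Of the 35, 27 had a log2 difference below 0 (77.1%). The share below 0 was 50.5% over all named genes and 61.8% over the 7387 genes at least as bright as Nle1. The median over the 35 was -0.051, a difference of -3.46%. It was -0.001 over all named genes and -0.026 over those bright genes. The differences of the 35 ran from -0.24 (Rrp12) to 0.055 (Rrs1). The arrays of MigR1-Cre lay below those of MigR1 without overlap for 6 genes (16.1% of all named genes did so) and above them for 0 (16.4%). At an unadjusted p under 0.05 there was 1 gene, Rrp12 (2.86% of the 35, beside 6.28% of all named genes). The 95% intervals of 34 of 35 genes lay within 0.5 of 0 on the log2 scale, and those of 29 left out a fall of 20%.

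In the E2a-/- line, 0 of 35 genes were called, beside 0% of all named genes. Here 17 genes were below and 18 above 0, with a median of 0.011 and a range from -0.15 (Ddx21) to 0.18 (Cad). MigR1-Cre arrays lay below MigR1 arrays without overlap for 8 genes (15.6% of all named genes) and above for 5 (15.8%). By limma, 0 genes had an unadjusted p under 0.05, beside 1.7% of all named genes. Of all 45037 probe sets, 836 had an unadjusted p under 0.05, where 2252 are expected by chance. Small p-values were thus rarer in this line than chance alone would give, and the test was conservative here. The intervals of 34 genes lay within 0.5 of 0, and those of 31 left out a fall of 20%. The lowest end of any of the 35 intervals was -0.47 (Ddx21), above the whole Mycn interval of -1.21 to -0.58 in this line. In the Lef1F/F line no such separation was seen in this fit, which does not pair the arrays. The lowest end there was -0.62 (Bop1), within the Mycn interval of -0.99 to -0.36, and the Mycn difference ran from -0.89 to -0.46 when 1 array was left out.

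Averaged over both lines, 0 of 35 genes were called (0.066% of all named genes). Of the 35, 29 were below 0 (82.9%, beside 63.2% of the genes at least as bright as Nle1). The median was -0.027, beside -0.018 over those bright genes. The 35 ranged from -0.11 (Odc1) to 0.035 (Cad). After Odc1, the lowest were Ddx21 (-0.10 ± 0.10) and Rrp12 (-0.095 ± 0.04), and next to Cad the highest were Gnl3 (0.033 ± 0.04) and Nop2 (0.024 ± 0.09). All 35 intervals lay within 0.5 of 0 and 33 left out a fall of 20%. At an unadjusted p under 0.05 there was 1 gene, Odc1 (2.86% of the 35, beside 4.51% of all named genes). The difference between the Cre effects of the lines was called for 0 of 35 genes (0.033% of all named genes), with a median of -0.050 and a range from -0.28 (Rrp12) to 0.16 (Rrs1). Cad (-0.28 ± 0.18) and Bop1 (-0.24 ± 0.29) were the next lowest, and Nop16 (0.11 ± 0.10) and Nop58 (0.11 ± 0.09) the next highest. At an unadjusted p under 0.05 there was again 1 gene, Rrp12 (2.86% of the 35, beside 4.1% of all named genes).

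**Figure D2:**
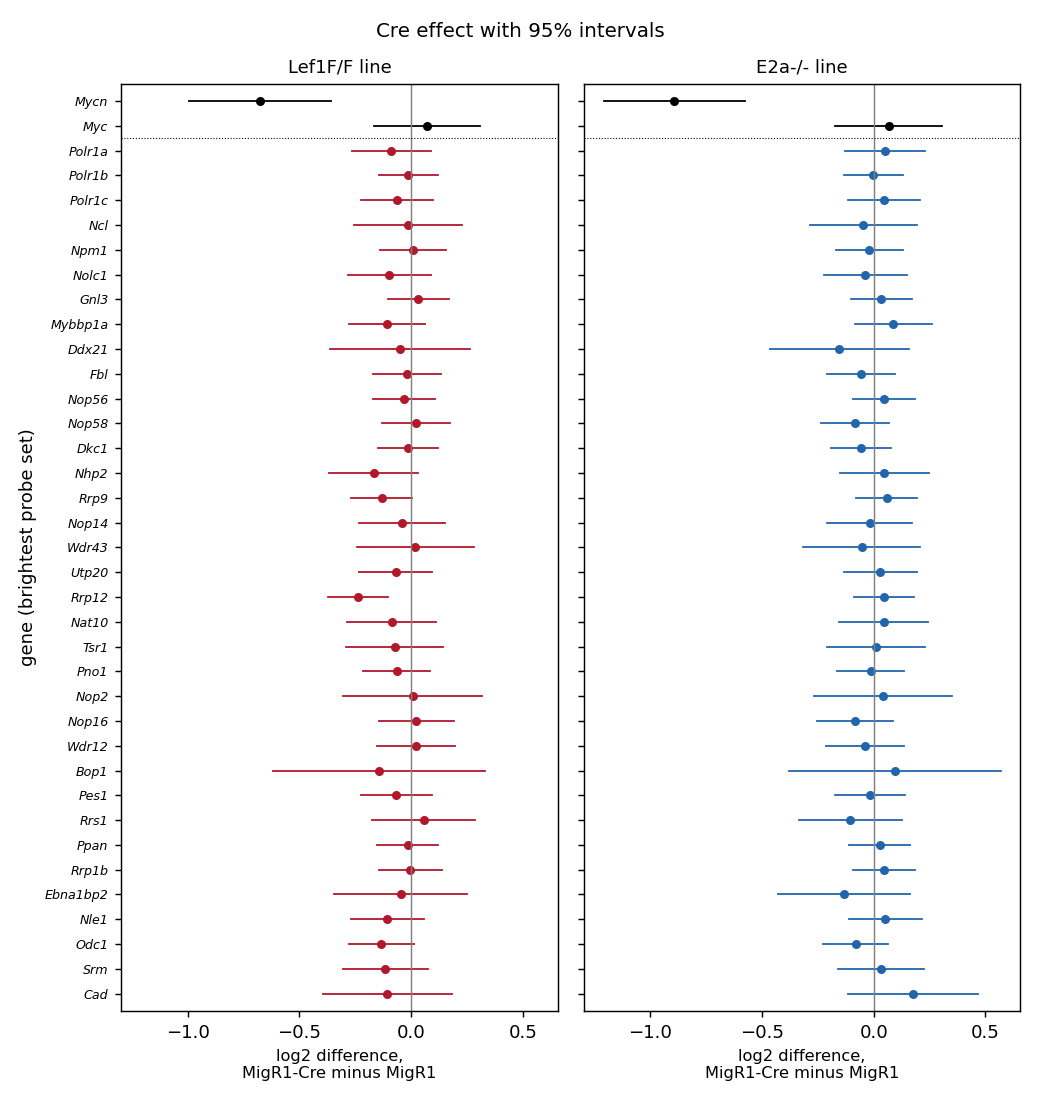
Log2 difference of MigR1-Cre minus MigR1 (x axis) for Mycn, Myc and the 35 genes (y axis) in the Lef1F/F line (left) and the E2a-/- line (right), points with 95% intervals from limma, 2 arrays a group. Mycn lies at -0.68 and -0.89, and the 35 genes lie between -0.24 and 0.18.

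Among the RNA polymerase I subunits, which transcribe the ribosomal RNA genes, the Cre differences were small in both lines. Polr1a, the largest subunit, had a log2 difference of -0.089 in the Lef1F/F line and 0.050 in the E2a-/- line. Those of Polr1b, the other catalytic subunit, were -0.013 and -0.0014, and those of Polr1c, a subunit shared with RNA polymerase III, were -0.063 and 0.046.

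Of the 6 nucleolar proteins, Ncl encodes nucleolin, an abundant RNA binding protein of the nucleolus, and is a textbook Myc target. It read 11290 and 13520 in the Lef1F/F MigR1-Cre arrays and 11490 and 13570 in the Lef1F/F MigR1 arrays, and 11720 and 11310 in the E2a-/- MigR1-Cre arrays and 11780 and 12000 in the E2a-/- MigR1 arrays. The arrays overlapped in the Lef1F/F line, and the log2 difference was -0.015 in that line and -0.046 in the E2a-/- line. Npm1, which encodes the nucleolar chaperone nucleophosmin, had 0.0072 and -0.019. Ddx21, an RNA helicase that acts with RNA polymerase I, read 1953 and 1742 in the E2a-/- MigR1-Cre arrays against 1995 and 2109 in the E2a-/- MigR1 arrays, a difference of -0.15 ± 0.14 (SE). In the Lef1F/F line its arrays overlapped, with 1571 and 2070 with MigR1-Cre and 1720 and 2029 with MigR1. Mybbp1a, which binds Myb and acts in ribosomal RNA processing, had -0.11 in the Lef1F/F line and 0.088 in the E2a-/- line. Gnl3, the nucleolar GTPase nucleostemin, was slightly above 0 in both lines, at 0.032 and 0.034.

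The snoRNP proteins carry out the modification of ribosomal RNA. Fbl (fibrillarin, the methyltransferase), Nop56 and Nop58 belong to the box C/D particles and Dkc1 (the pseudouridine synthase) and Nhp2 to the box H/ACA particles, while Rrp9 belongs to the U3 particle. Nhp2 read 5700 and 5028 in the Lef1F/F MigR1-Cre arrays against 6374 and 5674 in the Lef1F/F MigR1 arrays, with arrays that overlapped slightly and a log2 difference of -0.17 ± 0.09. In the E2a-/- line its difference was 0.048. Rrp9 had 557.2 and 530.5 in the Lef1F/F MigR1-Cre arrays against 610.9 and 579.9 in the Lef1F/F MigR1 arrays, and a difference of -0.13 in that line and 0.058 in the E2a-/- line. The remaining 4 genes lay between -0.033 and 0.023 in the Lef1F/F line.

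Of the 7 factors of the small subunit, Rrp12, which helps export pre-ribosomal particles from the nucleus, had the lowest difference of the list. It read 368.8 and 359.7 in the Lef1F/F MigR1-Cre arrays against 432.9 and 425.8 in the Lef1F/F MigR1 arrays, and 544.1 and 513.4 in the E2a-/- MigR1-Cre arrays against 516.4 and 507.4 in the E2a-/- MigR1 arrays. All 4 arrays of the Lef1F/F line were below those of the E2a-/- line, and within the Lef1F/F line the vectors did not overlap. Cre gave a log2 difference of -0.24 ± 0.06 in the Lef1F/F cells (unadjusted p = 0.00377, limma adjusted p = 0.444) and of 0.046 in the E2a-/- cells. The other 6 genes of this role (Nop14, Utp20 and Wdr43 of the early processome, the RNA acetyltransferase Nat10, Tsr1 and Pno1) were between -0.087 and 0.018 in the Lef1F/F line.

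The 10 large subunit factors include Pes1, Bop1 and Wdr12, which form the PeBoW complex. Bop1 read 1072 and 728.6 in the Lef1F/F MigR1-Cre arrays against 1189 and 803.6 in the Lef1F/F MigR1 arrays, and 1660 and 1692 in the E2a-/- MigR1-Cre arrays against 1558 and 1584 in the E2a-/- MigR1 arrays. In the Lef1F/F line the spread between the 2 arrays of a group exceeded the difference between vectors. The difference of -0.15 ± 0.21 turned to 0.13 without array 2 of the MigR1-Cre group and to 0.14 without array 1 of the MigR1 group. Array 2 lay below array 1 by a like amount in both groups (log2 -0.56 with MigR1-Cre and -0.57 with MigR1). For either array number the MigR1-Cre array read below the MigR1 array, although the labels do not pair the arrays. Pes1 had -0.066 in the Lef1F/F line and -0.017 in the E2a-/- line, and Wdr12 had 0.021 and -0.038. Rrs1, which brings 5S RNA particles to the pre-ribosome, had 3340 and 3453 in the Lef1F/F MigR1-Cre arrays and 2926 and 3650 in the Lef1F/F MigR1 arrays, which overlapped, and its difference of 0.055 became -0.10 without array 1 of the MigR1 group. Ebna1bp2, a factor of early large subunit processing, had -0.13 ± 0.13 in the E2a-/- line, and Nop16 0.023 ± 0.073 in the Lef1F/F line.

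Among the enzymes, Odc1 encodes ornithine decarboxylase, the rate-limiting enzyme of polyamine synthesis and a classical Myc target. It read 4713 and 4879 in the Lef1F/F MigR1-Cre arrays against 5319 and 5202 in the Lef1F/F MigR1 arrays, and 5864 and 5418 in the E2a-/- MigR1-Cre arrays against 6021 and 5903 in the E2a-/- MigR1 arrays. Its MigR1-Cre arrays lay below the MigR1 arrays in both lines, which held for 1 of the 35 genes (2.86%) and for 2.38% of all named genes. The averaged log2 difference was -0.11 ± 0.04 (SE, unadjusted p = 0.0422, limma adjusted p = 1), a difference of -7.16%. Cad, the enzyme of the first steps of pyrimidine synthesis, had 2018 and 2088 in the E2a-/- MigR1-Cre arrays against 1898 and 1740 in the E2a-/- MigR1 arrays. The order was the other way in the Lef1F/F line for the means, with 1418 and 1196 with MigR1-Cre against 1588 and 1237 with MigR1. Srm, spermidine synthase, had -0.11 in the Lef1F/F line and 0.033 in the E2a-/- line.

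The Cre differences of the list often had opposite signs in the lines. There were 16 genes below 0 in the Lef1F/F line and above 0 in the E2a-/- line, 6 with the reverse, 11 below 0 in both and 2 above 0 in both. The 8 genes with a CACGTG in the window had a median of -0.067 in the Lef1F/F line, and the 21 without had -0.041. In the E2a-/- line the medians were 0.020 with the motif and -0.0014 without it, and averaged over the lines they were -0.023 and -0.030. None of these genes was called for Cre in either line.

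A wider list of 139 other ribosome biogenesis genes likewise had 0 called in the Lef1F/F line and 0 in the E2a-/- line. These were 17 polymerase I subunits and factors, 10 snoRNP genes, 48 small subunit and 48 large subunit factors and 16 genes of the exosome and of RNA decay. Their median was -0.026 in the Lef1F/F line (90 of 139 below 0) and -0.033 in the E2a-/- line (99 below 0), where the 35 genes had 0.011 (17 below 0). Averaged over the lines, 106 of 139 were below 0 with a median of -0.026. These counts below 0 are 64.7%, 71.2% and 76.3% of the 139 genes. Among the 7387 genes at least as bright as Nle1, 61.8% were below 0 in the Lef1F/F line and 55.7% in the E2a-/- line. Averaged over the lines, 63.2% of those bright genes were below 0, with a median of -0.018. The median difference between the Cre effects of the lines was 0.0054 over the 139 genes, beside -0.050 over the 35. In the Lef1F/F line the differences ran from -0.20 to 0.21, and those with the smallest unadjusted p were Taf1c, a subunit of the polymerase I selectivity factor (0.21 ± 0.07, limma adjusted p = 0.916), and Ddx54, an RNA helicase (0.20 ± 0.07, adjusted p = 0.986). In the E2a-/- line the smallest unadjusted p among these genes was 0.0571, for Exosc2 of the RNA exosome (-0.15 ± 0.07, limma adjusted p = 1), followed by Ddx10, an RNA helicase (-0.19 ± 0.09). The 44 cytosolic ribosomal proteins were centred on 0, with medians of 0.0002 in the Lef1F/F line and -0.0003 in the E2a-/- line and 0 called in each. Of 9 other polyamine genes and 19 genes of purine and pyrimidine synthesis, 0 were called in either line.

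The genes differed between the lines themselves. In MigR1 arrays, 10 of 35 passed the test for the Lef1F/F line against the E2a-/- line, where 14.6% of all named genes did. Of these, 9 were lower in the Lef1F/F line (25.7%, beside 5.88% of all named genes) and 1 was higher (2.86%, beside 8.71%). Among the 7387 genes at least as bright as Nle1, 24.5% were called, 10.5% as lower and 13.9% as higher. The median difference over the 35 genes was -0.18, or -11.8%, with 30 of 35 below 0, whereas the median over all named genes was -0.005. The arrays did not overlap for 27 genes that were lower (27.7% of all named genes) and 1 that was higher (26.1%). Genotype cannot be told apart here from any other difference between the lines.

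**Figure D3:**
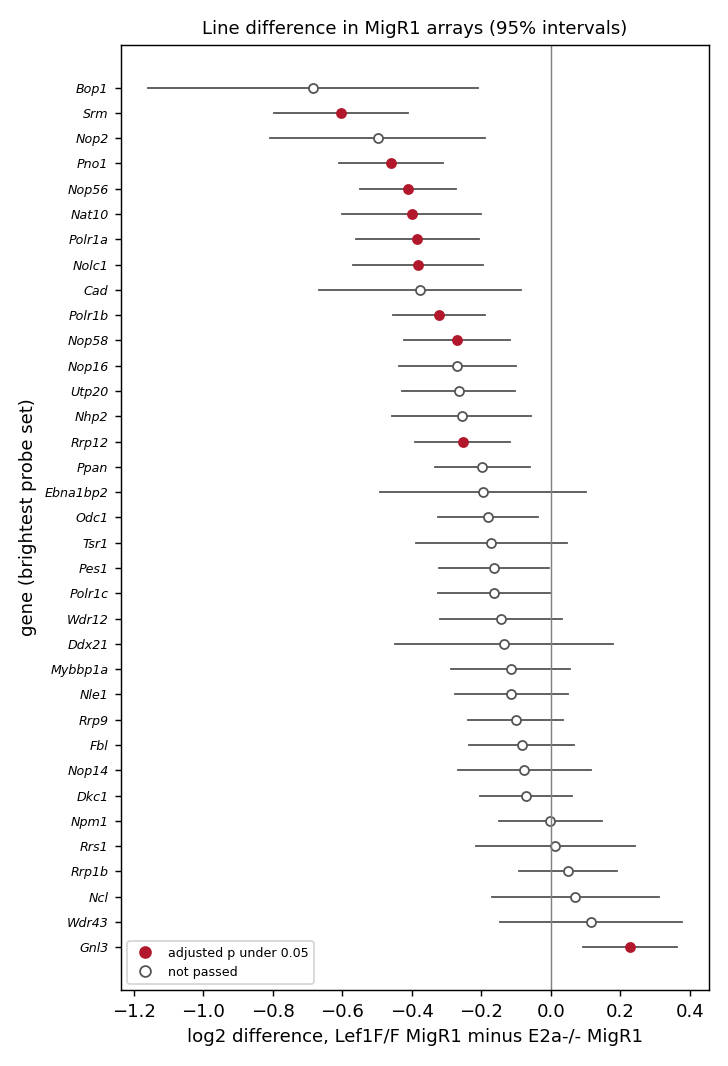
Log2 difference of Lef1F/F MigR1 minus E2a-/- MigR1 (x axis) for each of the 35 genes (y axis, ordered by the difference), with 95% intervals from limma, 2 arrays a group; filled points passed an adjusted p of 0.05. Of the 35 genes, 30 lie below 0, and Srm at -0.60 is the lowest that passed.

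By role, 2 of 3 polymerase I subunits were called, both lower in the Lef1F/F line. Polr1a read 567.2 and 519.4 in the Lef1F/F MigR1 arrays against 733.4 and 684.2 in the E2a-/- MigR1 arrays (log2 -0.38 ± 0.08 SE, limma adjusted p = 0.0158). Its other probe sets did not pass, at -0.41 ± 0.11, -0.30 ± 0.20, -0.026 and 0.055, the last 2 with mean intensities of 47.57 and 42.99. Polr1b read 562.6 and 585 against 724 and 710.3 in the same groups (-0.32 ± 0.06, adjusted p = 0.00922). Neither pair of groups overlapped. Polr1c, at -0.16, did not pass.

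Among nucleolar proteins, Nolc1, a chaperone of snoRNPs, was lower, with 2709 and 2949 in the Lef1F/F MigR1 arrays against 3642 and 3726 in the E2a-/- MigR1 arrays (log2 -0.38 ± 0.08, limma adjusted p = 0.0204). Its 3 probe sets disagreed, since the others gave 0.29 ± 0.09 and -0.30 ± 0.21 and did not pass. Gnl3 was the gene that was higher, with 3367 and 3445 in the Lef1F/F MigR1 arrays against 2887 and 2928 in the E2a-/- MigR1 arrays (0.23 ± 0.06, adjusted p = 0.046). Ncl (0.071) and Npm1 overlapped between the lines, as did Wdr43 of the small subunit (0.12 ± 0.11).

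The snoRNP genes Nop56 and Nop58, which encode the core pair of the box C/D particle, were both lower. Nop56 read 3833 and 3640 in the Lef1F/F MigR1 arrays against 4874 and 5061 in the E2a-/- MigR1 arrays (log2 -0.41 ± 0.06, limma adjusted p = 0.00334), and its other probe set gave -0.42 ± 0.07 (adjusted p = 0.0079). Nop58 read 4603 and 4438 in the Lef1F/F line against 5184 and 5727 in the E2a-/- line (-0.27 ± 0.07, adjusted p = 0.0382). Fbl and Dkc1 did not pass, at -0.083 and -0.072. Nhp2 did not pass with its brightest probe set (-0.26, adjusted p = 0.115), although its other probe set did (-0.47 ± 0.06, adjusted p = 0.00255).

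Of the small subunit factors, 3 of 7 were called and all 3 were lower. Pno1, which acts late in small subunit maturation, read 1285 and 1359 in the Lef1F/F MigR1 arrays against 1794 and 1842 in the E2a-/- MigR1 arrays (log2 -0.46 ± 0.06, limma adjusted p = 0.00282). Nat10 had 545.5 and 461.8 against 664.6 and 660.3 in the same groups (-0.40 ± 0.09, adjusted p = 0.0223). The other Nat10 probe set, with a mean intensity of 89.46, gave -0.092 ± 0.06 and did not pass. Rrp12, whose values are given above, had -0.25 ± 0.06 (adjusted p = 0.0297). The arrays of these 3 genes did not overlap between the lines. Utp20 lay just outside the threshold, at -0.26 and an adjusted p of 0.0519.

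Of the 10 large subunit factors, 0 were called, although their differences were not the smallest. Bop1 had -0.68 ± 0.21 (limma adjusted p = 0.08) and Nop2, an RNA methyltransferase, -0.50 ± 0.13 (adjusted p = 0.054). The 2 arrays of the Lef1F/F MigR1 group were far apart for both genes, with 1189 and 803.6 for Bop1 and 818 and 610.7 for Nop2, against 1558 and 1584, and 966.8 and 1030, in the E2a-/- MigR1 group. The other probe set of Bop1 gave -0.57 ± 0.12 (adjusted p = 0.0182). Pes1 disagreed between its probe sets, at -0.16 with the brighter one and 0.33 ± 0.07 (adjusted p = 0.0181) with the dimmer one.

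Srm had the largest difference among the genes that passed. It read 2900 and 2670 in the Lef1F/F MigR1 arrays against 4328 and 4124 in the E2a-/- MigR1 arrays (log2 -0.60 ± 0.08, limma adjusted p = 0.00256), which is -34.1%. Odc1 (-0.18) and Cad (-0.38) did not pass.

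The count of 10 depended on single arrays. It was 3 without array 1 of the E2a-/- MigR1 group (7.26% of all named genes called), 3 without array 2 of that group (7.34%) and 5 without array 2 of the Lef1F/F MigR1 group (9.61%). Of the 10 genes, 3 (Srm, Pno1 and Nop56) passed in all 8 fits that left out 1 array. Gnl3 passed in 0 of them, with differences between 0.21 and 0.24.

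The same line difference was then taken in the MigR1-Cre arrays, which are separate arrays and which also differ by the Cre-dependent loss of Lef1. This comparison was added after the data were seen. There, 20 of 35 genes passed (16.1% of all named genes), 19 lower (7.46%) and 1 higher (8.6%), with a median of -0.26 and 29 of 35 below 0. Of the 10 genes called in MigR1 arrays, 9 were called again, all but Nop58. Srm had -0.75 (limma adjusted p = 0.000807), Rrp12 -0.54 (adjusted p = 0.00074), Bop1 -0.92 (adjusted p = 0.0235) and Cad -0.66 (adjusted p = 0.0119). Over all 8 arrays, the 4 arrays of the Lef1F/F line lay below the 4 of the E2a-/- line for 23 of 35 genes (14.9% of all named genes) and above them for 1, Gnl3 (14.7%). These shares were not taken over the genes at least as bright as Nle1 alone. For the calls in MigR1 arrays, the share was 24.5% of those bright genes, against 14.6% of all named genes.

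**Figure D4:**
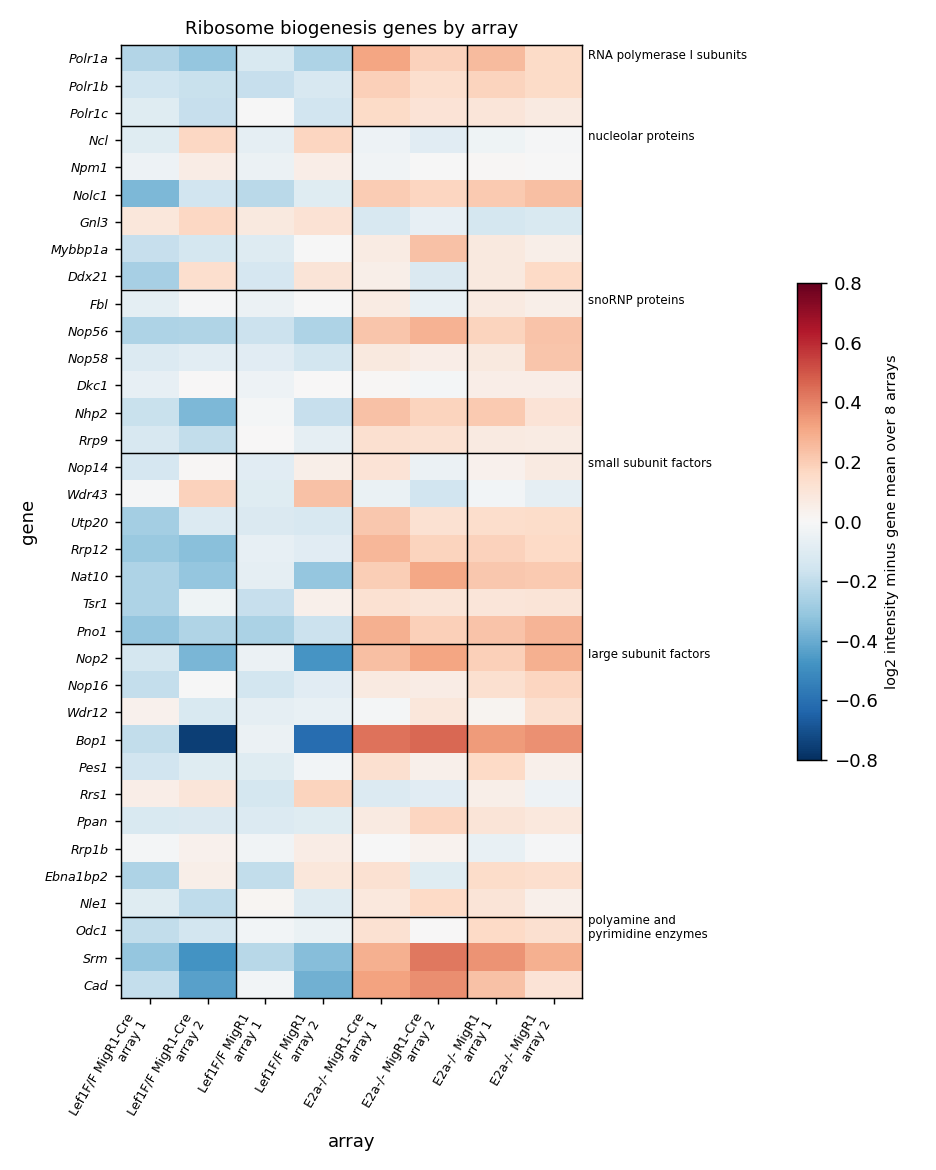
Log2 intensity minus the gene's mean over the 8 arrays (colour, from -0.8 to 0.8) for the 35 genes (rows, grouped by role) in each array (columns, by group). Most rows are blue in the 4 Lef1F/F arrays and red in the 4 E2a-/- arrays, and Gnl3 is the reverse.

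Averaged over the 35 genes, the log2 intensity relative to each gene's mean was -0.16 and -0.13 in the Lef1F/F MigR1-Cre arrays and -0.091 and -0.089 in the Lef1F/F MigR1 arrays, against 0.13 and 0.11 in the E2a-/- MigR1-Cre arrays and 0.12 and 0.12 in the E2a-/- MigR1 arrays. The replicate arrays lay close together and the gap between the lines was larger than that between vectors within either line. For Mycn the line difference in MigR1 arrays was -0.26 (limma adjusted p = 0.329), and for Myc it was -0.0017. Single genes varied more than this mean. The SD over the 35 genes of the difference between replicate arrays was 0.18 in the Lef1F/F MigR1-Cre group and 0.20 in the Lef1F/F MigR1 group, against 0.093 in the E2a-/- MigR1-Cre group and 0.063 in the E2a-/- MigR1 group.

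The other 139 ribosome biogenesis genes also differed between the lines. Of these, 27 were called in MigR1 arrays (19.4%). The share was 14.6% over all named genes and 24.5% over the 7387 genes at least as bright as Nle1. In the Lef1F/F line 24 were lower, beside 5.88% of all named genes and 10.5% of the bright ones. Another 3 were higher, beside 8.71% and 13.9%. Of the 139 genes, 106 were below 0 (76.3%, beside 52.7% of the bright genes), with a median of -0.16. Exosc2, a subunit of the RNA exosome, had the lowest value at -1.12 ± 0.07 (limma adjusted p = 2.64e-05). The lowest that passed among the large subunit genes was Pop1 of RNase MRP (-0.62, adjusted p = 0.00144), and among the small subunit genes Utp14a of the processome (-0.54, adjusted p = 0.000532). Nop9 (0.41, adjusted p = 0.00453), Ngdn (0.26, adjusted p = 0.0498) and Ddx54 (0.31, adjusted p = 0.0363) were the 3 that were higher. The call was made for 2 of 17 polymerase I genes (Znrd1 at -0.49 and Polr2e at -0.31, a subunit shared by the 3 polymerases), for 1 of 10 snoRNP genes (Znhit6, -0.38), for 10 of 48 small subunit genes, for 13 of 48 large subunit genes and for 1 of 16 exosome genes. Ribosomal protein genes differed less, with 1 of 44 called (Rpl14, -0.28) and a median of -0.057. Of the 9 other polyamine genes, Smox, spermine oxidase, was lower (-0.81, adjusted p = 0.00184), as was Dhps (-0.52), whereas Oaz2, an antizyme, was higher (0.46). In purine and pyrimidine synthesis 5 of 19 were lower, and in the Myc network 1 of 12 was higher, Mga, which encodes a Max partner (0.76, adjusted p = 0.000181). Among the genes with a CACGTG window 1 of 8 was called between the lines (Pno1), and among those without it 7 of 21.

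**Figure D5:**
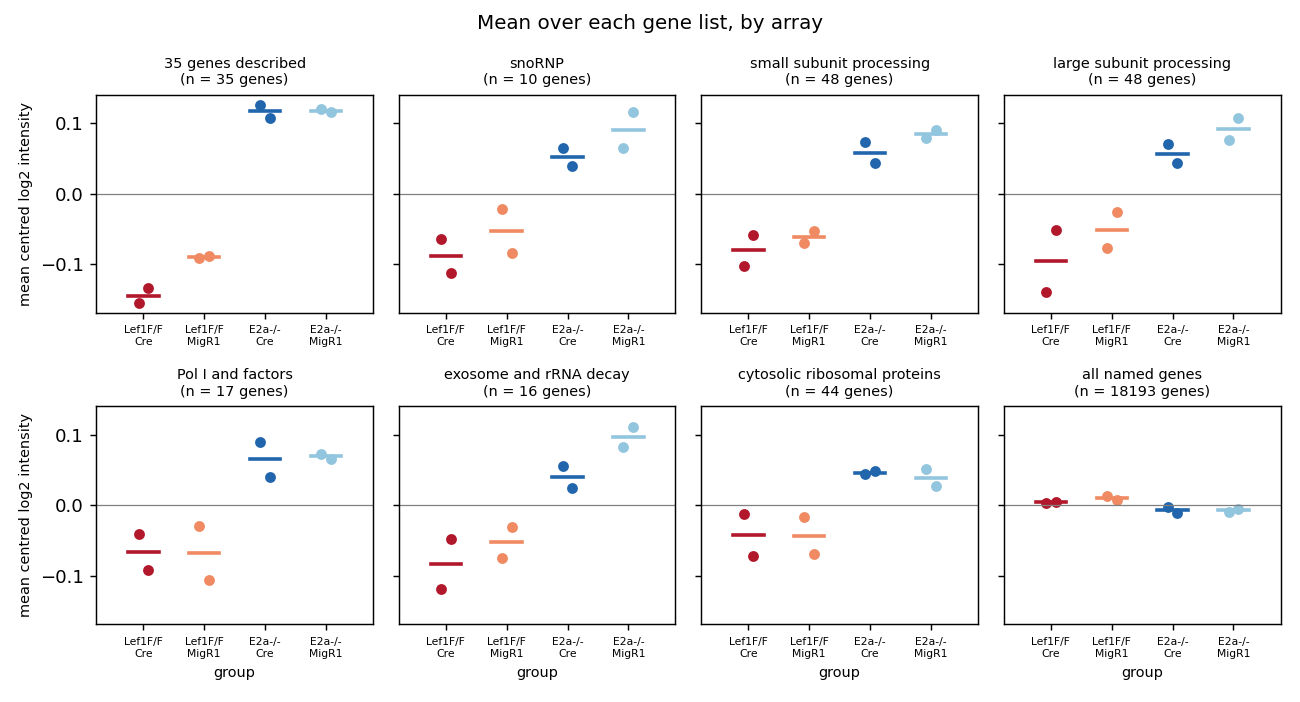
Mean centred log2 intensity (y axis) of the 35 genes, of 5 lists of other ribosome biogenesis genes, of ribosomal proteins and of all named genes, in each array by group (x axis); points are arrays and bars group means of 2 arrays. In the 35 genes the Lef1F/F arrays lie between -0.16 and -0.089 and the E2a-/- arrays between 0.11 and 0.13, while all named genes stay near 0.

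Other features of the arrays also moved with the line. Over 10 T lineage markers, 4 were higher in the Lef1F/F line in MigR1 arrays (Cd3g, Notch1, Cd3e and Bcl11b) and 2 lower (Il7r at -1.51 and Ptcra at -0.36), and their summed intensity was between 37540 and 43370 in the Lef1F/F MigR1 arrays and between 34610 and 35200 in the E2a-/- MigR1 arrays. Of 6 stromal markers, Col1a2 read 310.6 and 293.5 in the Lef1F/F MigR1 arrays against 4131 and 4189 in the E2a-/- MigR1 arrays (log2 -3.78, limma adjusted p = 2e-07), whereas Col1a1 and Col3a1, the other defining collagens, were under 70 in all arrays. Pdgfrb was higher in the Lef1F/F line (0.72, adjusted p = 0.00568), and the summed stromal intensity was between 971.2 and 1024 in the Lef1F/F MigR1 arrays and between 4713 and 4823 in the E2a-/- MigR1 arrays. Their part in the line difference of the ribosome biogenesis genes was not tested.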

How the data were processed

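Total RNA of GFP+ cells was hybridised to 8 Affymetrix mouse genome arrays. The authors normalised the scans with RMA, and the deposited values are intensities on a linear scale, between 35.25 and 25588. log2 was taken with no offset (the design had assumed log2 values). Groups came from sample titles, and arrays were numbered in record order. Group means over all 8 arrays were fitted with limma 3.58.1 in R 4.3.3 (4 residual and 3.99 prior degrees of freedom), and two-sided p-values received a Benjamini-Hochberg adjustment across 45037 probe sets. Genes were named from probe sets with 1 symbol (34945), using the annotation and GRCm38.p6 identifiers (34741 matched). The genes and lists were chosen with earlier results of these data known. Of 269 entries of the other lists, 224 were measured, and of 37 marker entries, 32. Named were all genes of the list past the threshold and otherwise the 3 highest and 3 lowest in each contrast, probe sets that disagreed, Mycn, Myc, Mycl, Max and Lef1, and up to 2 genes a direction of each other list. Further genes of the 35, and Cd3d, Cd3e, Bcl11b, Col1a1 and Col3a1, were added with their values known. Alternatives were trend and robust moderation, only the 4 arrays compared, the mean of probe sets, leaving out shared probe sets, repeated quantile normalisation, median centring, array weights and leaving out each array. The fit was tested on simulated data with independent errors in each array. That simulation left out the deviation that Lef1F/F arrays of the same number shared. The number of arrays limits the precision.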

Additional observations from a re-analysis of the deposited data

Results flagged for a closer look

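None of the 35 ribosome biogenesis genes differed between the lines in its Cre effect by limma. Among the genes the question turns on, the fall of Lef1 with MigR1-Cre differed between the lines, by -2.40 on the log2 scale with the dimmer probe set (limma adjusted p = 0.0149) and by -1.82 with the brighter one (adjusted p = 0.0184), Lef1F/F minus E2a-/-. Groups of 2 arrays are too small for a check of single outlying arrays.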

How the results depend on the processing

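For Cre, 0 of 35 genes were called in each contrast under every alternative run. The count for the line difference was 6 with only the 4 arrays compared (12.2% of all named genes called), 16 with each gene's probe sets averaged (16.4%), and between 3 and 13 when 1 array was left out (7.26% to 15.7% of all named genes). Calls over all genes thus moved in the same direction as those of the 35. The median over the 35 genes in the Lef1F/F line was -0.038 with repeated quantile normalisation, -0.066 with arrays centred on their median, and between -0.054 and -0.022 with 1 array left out. In the E2a-/- line it was -0.0034 with the mean of probe sets, -0.015 over the 30 genes left without shared probe sets, 0.029 with repeated quantile normalisation, and -0.0062 to 0.012 with 1 array left out, so it has no settled sign. Averaged over the lines it was -0.012 with repeated quantile normalisation and -0.039 with centred arrays, and between -0.036 and -0.018 with 1 array left out. For the difference of the Cre effects it was -0.034 with the mean of probe sets and between -0.076 and -0.012 with 1 array left out. For the line difference it was -0.26 without shared probe sets, -0.16 with repeated quantile normalisation and between -0.20 and -0.18 with 1 array left out. The Mycn difference of -0.89 in the E2a-/- line passed with only the 4 arrays compared (adjusted p = 0.0102), and the averaged one of -0.78 passed with array weights (adjusted p = 0.0389). The averaged difference ran from -0.89 to -0.68 with 1 array left out, and the Lef1F/F one from -0.89 to -0.46. With the mean of its 3 probe sets, of which 2 are dim, Mycn was -0.18 in the Lef1F/F line, -0.30 in the E2a-/- line and -0.24 averaged over the lines, and did not pass. The cause was not tested.

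Uncalled genes turned sign as follows. With the mean of probe sets, Nop16 was -0.0003 in the Lef1F/F line and -0.028 in the difference of the Cre effects, and Bop1 -0.0061 in the E2a-/- line. Without shared probe sets, Rrs1 was -0.031 in the Lef1F/F line, Mybbp1a -0.054 in the E2a-/- line and Cad -0.012 averaged over the lines. With 1 array left out, the Lef1F/F difference ran from -0.0038 to 0.067 for Gnl3, -0.069 to 0.12 for Nop16, -0.43 to 0.14 for Bop1 and -0.10 to 0.21 for Rrs1. The averaged difference ran from -0.055 to 0.12 for Cad and -0.082 to 0.13 for Nop2, and the difference of the Cre effects from -0.52 to 0.044 for Bop1 and from -0.0002 to 0.32 for Rrs1.

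The labels give no replicate numbers that pair arrays. In the data, array 2 minus array 1 had the same sign in both Lef1F/F groups for 29 of 35 genes, and a fit with the Lef1F/F arrays of the same number as a replicate block was added after seeing the data. With the block, 0 of 35 genes were called for Cre in any contrast and 17 for the line difference (1 higher, 16 lower), beside 24.2% of all named genes. Mycn passed with the block, at -0.68 in the Lef1F/F line (adjusted p = 0.000522), -0.89 in the E2a-/- line (adjusted p = 0.00121) and -0.78 averaged over the lines (adjusted p = 2.19e-05). Over all probe sets, the calls for the Lef1F/F Cre effect numbered 345 with the block and 75 without.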
